A study of Mus musculus with 9 samples.

Results

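The ErbB receptor tyrosine kinases Egfr, Erbb2, Erbb3 and Erbb4, the ErbB ligands Btc, Ereg, Hbegf and Tgfa, the receptor tyrosine kinase Met and its ligand Hgf were followed in mouse mammary tumors. The members were chosen by gene symbol, with Ensembl identifiers of the count table mapped to GRCm38 symbols. All 10 were found among 55401 mouse gene identifiers. The 9 libraries came from mammary tumors of female mice of the strain labelled C57BL/6 MUC1.Tg MMTV-PyMT (MMT), in which the polyoma middle T oncogene is driven by a mammary tumor virus promoter that is active mainly in mammary epithelium. Both groups thus carried the oncogene and the human MUC1 transgene. The WT group, with genotype Hspa1a/Hspa1b+/+, held 4 tumors of animals 122 to 132 days old. The KO group, with genotype Hspa1a/Hspa1b-/-, held 5 tumors of animals 120 to 125 days old and lacked the genes of the inducible chaperone HSP72. Libraries are called WT 1 to WT 4 and KO 1 to KO 5, as numbered in the labels. WT 2 was labelled 132 days, and every other library 120 to 125 days. Tumors had been dissociated with collagenase and trypsin before RNA was extracted. The labels do not say whether tumors were pooled or which animal gave each, and the p-values therefore speak only of the spread over these libraries, which may be technical.

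ErbB receptors sit in the membrane of epithelial cells and form pairs when a ligand binds, which starts signalling through the Ras-ERK and PI3K-AKT pathways. Erbb2 has no known ligand and is the favoured partner of the others, while Erbb3 has a weak kinase and couples strongly to PI3K. In the mammary gland Egfr serves duct growth, Erbb4 serves lactation, and amplified ERBB2 defines a class of human breast cancers. Met binds Hgf, which is made mainly by stromal cells and drives epithelial branching and scattering. Polyoma middle T recruits Src family kinases, Shc and PI3K, some of the same effectors that these receptors use.

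Sequencing gave 11500920 to 19136317 fragments per library, and gene counts summed to 4410399 to 6221181. Levels are given as CPM, the count of a gene scaled to the library's total of gene counts with TMM factors. Where a gene had no count, its level could be up to 0.482 to 0.680 CPM (the level of 3 counts, for counting error alone). Of the deleted genes, Hspa1b stood at 28.7 to 81.1 CPM in WT and at 0 to 0.657 CPM in KO, and Hspa1a at 3.99 to 9.77 CPM and 0.163 to 1.64 CPM. All 16 luminal epithelial markers examined were detected in every library, with summed levels of 4504 to 8760 CPM in WT and 4268 to 5449 CPM in KO. Libraries differed in base composition. Across 14647 genes, the deviation from the mean log2 level correlated with the GC content of the transcript at r = -0.56 in KO 3 and r = -0.31 in WT 1, and at r = -0.10 to 0.31 in the other libraries. WT 1 also had the fewest gene counts.

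The stretches just before the first annotated base of Egfr, Met and Erbb2 are shown because the levels of Egfr and Met varied together over the libraries while that of Erbb2 held nearly steady, as described below. They come from RefSeq's promoter windows on GRCm38.p6, plus strand, 5′ to 3′. They lie at chr11:16752053-16752202 (Egfr), chr6:17463707-17463799 (Met) and chr11:98412320-98412469 (Erbb2). Capitals mark the GC box GGGCGG, read on both strands.
Egfr: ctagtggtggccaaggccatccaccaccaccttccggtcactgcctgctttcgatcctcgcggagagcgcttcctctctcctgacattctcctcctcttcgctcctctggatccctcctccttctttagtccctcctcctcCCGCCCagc
Met: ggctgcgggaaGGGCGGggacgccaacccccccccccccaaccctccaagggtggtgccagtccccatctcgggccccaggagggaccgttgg
Erbb2: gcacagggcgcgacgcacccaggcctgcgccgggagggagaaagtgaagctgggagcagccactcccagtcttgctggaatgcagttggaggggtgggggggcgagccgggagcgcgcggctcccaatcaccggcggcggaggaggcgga
The windows of Egfr and Met held 1 GC box each and that of Erbb2 none, where windows of the same length and place held one in 28.6%, 9.67% and 27.2% of 32851 promoters. None of the 3 held the TATA box TATAAA on either strand, which occurred in 7.57%, 4.91% and 7.73%. For Egfr the first annotated base, taken from GENCODE, was also the RefSeq start. For Met and Erbb2 it lay upstream of the RefSeq start, so their stretches stopped short of that start. Whether a TATA box lies nearer to it was not examined. The G and C share was 61.3% for Egfr, 75.3% for Met and 72.0% for Erbb2. Whether any of these features bears on the levels was not tested.

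No member passed the test between KO and WT tumors. Of the 10, 8 passed the filter on low counts, while Hgf and Ereg did not. By edgeR's quasi-likelihood test, 0 of these 8 were called at a Benjamini-Hochberg adjusted p under 0.05 and 0 had an unadjusted p under 0.05. Over all 14665 genes tested the corresponding shares were 0.0886% and 7.95%, and 0.0546% were called higher and 0.0341% lower in KO. DESeq2 and limma-voom also called 0 of the 8, with 0.464% and 0.130% of all genes called. Limma-voom gave 1 of them, Erbb4, an unadjusted p under 0.05. The lowest adjusted p of a member was 0.634, for Btc. Fold changes were negative for 7 members and positive for 1, with a median log2 fold change of -0.083, where the median over all genes was -7.8e-05. The WT and KO libraries overlapped for all 10 members, where 2.70% of the genes tested had groups that did not overlap (1.44% with every KO library above and 1.26% below). In whole-tumor RNA, fewer cells of a type and less RNA per cell cannot be told apart.

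**Figure D1:**
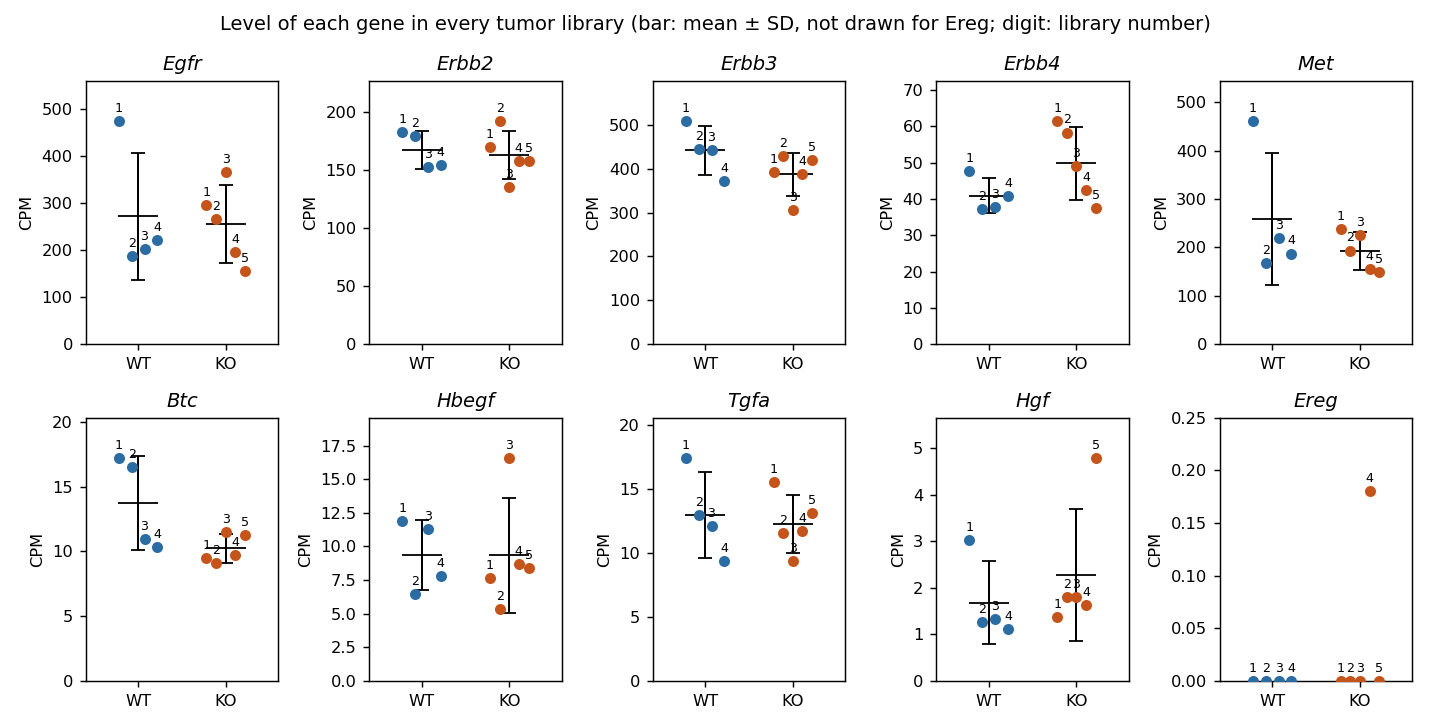
Level of each of the 10 genes in CPM, on linear axes from 0, in the 4 WT and 5 KO libraries. Each point is a library with its number, and bars give the mean ± SD (not drawn for Ereg). WT 1 is the highest point for Egfr and Met, at 474 and 461 CPM, and the groups overlap in every panel.

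Erbb3 was the most abundant receptor transcript once levels were scaled to exon length. Exon length counts every base in any annotated exon of the gene, over all its transcripts, and the orders per kb depend on it. Without this scaling Egfr averaged 272 CPM in WT and 256 CPM in KO, above Erbb2 at 167 and 163 CPM. Over the 9 libraries Erbb3 stood at 68.4 ± 9.35 CPM per kb of exon (SD, n = 9), Erbb2 at 31.6 ± 3.43, Met at 28.9 ± 12.3, Egfr at 23.2 ± 9.02 and Erbb4 at 3.71 ± 0.733. Erbb3 exceeded Erbb2 per kb in 9 of 9 libraries, and Egfr exceeded Erbb4 in 9 of 9. Between those ends the order was not the same in every library: Erbb2 exceeded Met in 7 libraries and Met exceeded Egfr in 8. Erbb3 made up 51.1% to 59.4% of the summed ErbB receptor level per kb in WT and 44.9% to 59.7% in KO. The share of Erbb2 was 21.2% to 26.9% in WT and 23.0% to 27.1% in KO. Egfr ranged more widely, from 13.0% to 25.3% in WT and from 11.7% to 28.6% in KO. Erbb4 made up at most 3.85% in any library.

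**Figure D2:**
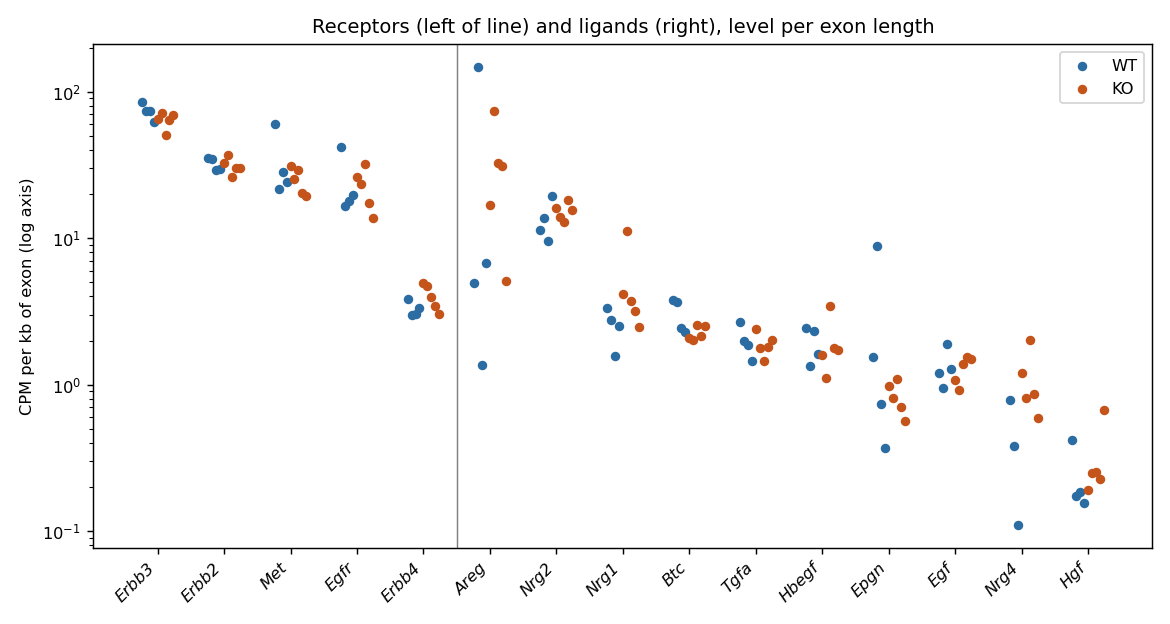
Level of receptors and ligands in CPM per kb of exon (log axis) in each library, in order of the mean, with receptors left of the line. Blue points are WT and orange points KO libraries. Ereg and Nrg3 are left out, and the value of 0 for Nrg4 in WT 1 is not drawn. Erbb3 lies highest among receptors, and Areg spreads from 1.37 to 148 CPM per kb.

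Egfr (ENSMUSG00000020122.16, chromosome 11, 16752203 to 16918158) encodes the receptor for EGF, Tgfa and amphiregulin. Its WT levels were 474, 189, 202 and 222 CPM in WT 1 to WT 4. In KO 1 to KO 5 it stood at 296, 265, 366, 197 and 155 CPM. WT 1 was highest and KO 3 next, while the other WT libraries lay inside the KO range. The log2 fold change of KO over WT was -0.08 ± 0.31 (SE; 95% interval -0.77 to 0.60; edgeR adjusted p = 0.957), from a mean of 272 ± 136 CPM (SD, n = 4) over the WT and 256 ± 83.0 CPM (SD, n = 5) over the KO libraries. It was 0.33 without WT 1 (edgeR adjusted p = 0.791) and 0.052 without KO 5, and negative without any other single library.

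Erbb2 (ENSMUSG00000062312.5, chromosome 11, 98412470 to 98437716), the co-receptor without a ligand of its own, varied least. It stood at 183, 179.7, 153 and 154 CPM in the WT libraries. In the KO libraries it stood at 170.4, 192, 135, 158 and 158 CPM. No library was far from the rest, and the coefficient of variation over all 9 was 10.8%, the lowest of the 9 genes detected in every library. Its log2 fold change was -0.04 ± 0.13 (SE; 95% interval -0.32 to 0.24; edgeR adjusted p = 0.952). Erbb2 shares 9 exon bases with the opposite-strand gene Mien1.

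Erbb3 (ENSMUSG00000018166.8, chromosome 10, 128567523 to 128589652), the neuregulin receptor with a weak kinase, was nearly as even. Its WT levels were 508, 445, 442 and 372 CPM, and its KO levels 393, 429, 306, 389 and 421 CPM. WT 1 was highest and KO 3 lowest, with the remaining 7 libraries between 372 and 445 CPM. The log2 fold change was -0.19 ± 0.14 (SE; 95% interval -0.50 to 0.12; edgeR adjusted p = 0.728).

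Erbb4 (ENSMUSG00000062209.15, chromosome 1, 68032186 to 69108059), the other neuregulin receptor, was the only member tested with a positive fold change. It stood at 47.7, 37.2, 37.7 and 41.0 CPM in WT. In KO it stood at 61.5, 58.3, 49.1, 42.6 and 37.6 CPM. KO 1 to KO 3 exceeded every WT library, while KO 4 and KO 5 lay within the WT range. The log2 fold change of 0.29 ± 0.16 (SE; 95% interval -0.07 to 0.64) did not pass (edgeR adjusted p = 0.671). It was positive whichever library was left out, from 0.20 without KO 1 to 0.37 without KO 5. An exact permutation test of the mean log2 CPM gave p = 0.167 (two-sided), where the smallest p these group sizes allow is 0.00794.

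Met (ENSMUSG00000009376.15, chromosome 6, 17463800 to 17573980), the Hgf receptor, followed Egfr. It stood at 461, 167, 219 and 187 CPM in the WT libraries. In the KO libraries it stood at 239, 194, 225, 156 and 149.9 CPM. WT 1 was 1.93 times the next library, KO 1, and the other 8 libraries lay between 149.9 and 239 CPM in both groups. KO over WT, Met differed by -0.42 ± 0.28 on the log2 scale (SE; 95% interval -1.05 to 0.20; edgeR adjusted p = 0.708), and without WT 1 by 0.0098. With age as a covariate it was -0.70, with an adjusted p of 0.320.

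**Figure D3:**
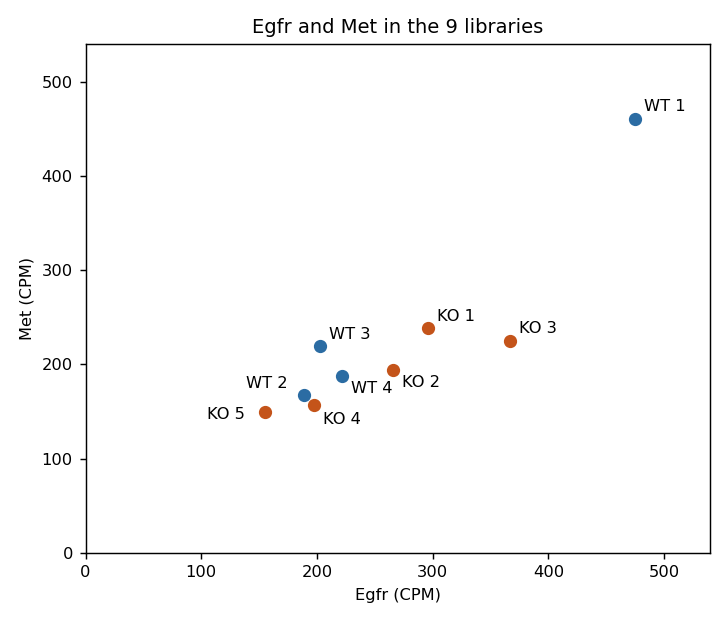
Met against Egfr in CPM on linear axes, 1 point per library, blue for WT and orange for KO. WT 1 stands apart at the top right at 474 and 461 CPM, and the other 8 libraries run from 155 and 149.9 CPM (KO 5) upward, with both groups mixed.

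Egfr and Met varied together over the 9 libraries, with r = 0.88 and rho = 0.92 for log2 CPM, and r = 0.80 without WT 1. This is a description over 9 points that share library, depth and composition, and it was the highest of the 28 correlations between tested members. The next highest was that of Erbb2 with Erbb3 (r = 0.76), and the lowest that of Erbb2 with Hbegf (r = -0.70). The transcripts of Egfr and Met have similar GC contents of 44.4% and 45.5%. After each library was corrected for GC content and exon length, WT 1 still stood at 456 CPM for Egfr and 452 CPM for Met, against at most 322 and 239 CPM elsewhere. Several marker genes were also high in WT 1. Among luminal epithelial markers, Epcam stood at 1471 CPM there and at 628 to 984 CPM in the other libraries. Cdh1 stood at 1263 CPM there and at 569 to 888 CPM in the others. Other luminal markers went the other way, and the sum of all 16 was highest in WT 2. Foxa1, Esr1 and Krt7 had their lowest levels of the 9 libraries in WT 1, at 13.5, 15.4 and 96.1 CPM. The 9 endothelial markers, all detected in every library, summed to 171 CPM there, with the other WT libraries at 75.8 to 83.7 CPM and KO at 34.7 to 96.8 CPM. The 11 macrophage markers, also all detected, summed to 796 CPM in WT 1 and 747 CPM in WT 4. Their sums were 495 to 796 CPM in WT and 256 to 656 CPM in KO. The 10 milk protein genes, of which 9 were detected in every library, summed to 17945 CPM in WT 1 and 14423 CPM in WT 4. Their sums were 4218 to 17945 CPM in WT and 3203 to 8527 CPM in KO. The macrophage and milk protein sums were high in WT 4 too, and its endothelial sum was 83.7 CPM. Egfr stood at 222 CPM and Met at 187 CPM in WT 4. The part of all these markers in the Egfr and Met levels was not tested.

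Among 12430 protein-coding genes with a mean log2 CPM of at least 1, those whose log2 CPM correlated best with Egfr over the 9 libraries were Nipa1 (r = 0.98), Tacr3 (r = 0.97) and Kremen1 (r = 0.97). For Met, Gpc4 (r = 0.98) and Slc46a1 (r = 0.98) correlated best, and without WT 1 these stood at r = 0.90 and 0.89. Camsap2 (r = 0.90), Cep350 (r = 0.88) and 5430419D17Rik (r = 0.88) were most like Erbb2. Cox20 (r = 0.95), Bpnt1 (r = 0.93) and Tpcn1 (r = 0.92) were most like Erbb3. These are the extremes of many correlations over few libraries and are given as a description only.

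The ErbB ligands on the list were lower per kb than Egfr in the mean, and nearer to Erbb4, which exceeded Btc in 8 of 9 libraries. Per kb of exon Btc stood at 2.61 ± 0.662 CPM, Tgfa at 1.94 ± 0.406 and Hbegf at 1.93 ± 0.705 (SD, n = 9). Btc exceeded Tgfa in 8 of 9 libraries and Tgfa exceeded Hbegf in 6, so neither order held in every library. ErbB ligands can act in neighbouring cells as well as in the cell that makes them.

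Btc (ENSMUSG00000082361.6, chromosome 5, 91357261 to 91402994) encodes betacellulin, a ligand of Egfr and Erbb4. It stood at 17.2, 16.5, 10.97 and 10.3 CPM in WT and at 9.46, 9.13, 11.5, 9.75 and 11.3 CPM in KO. WT 1 and WT 2 were high, while WT 3 and WT 4 lay inside the KO range. Its log2 fold change was -0.42 ± 0.20 (SE; 95% interval -0.86 to 0.01; edgeR unadjusted p = 0.0560, adjusted p = 0.634). It was negative whichever library was left out, from -0.54 without WT 4 to -0.30 without WT 1, with adjusted p of 0.566 to 0.871. By exact permutation p was 0.0635 (two-sided). The counts behind it were 46 to 79 per library.

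Tgfa (ENSMUSG00000029999.14, chromosome 6, 86195223 to 86275719) encodes transforming growth factor alpha, a ligand of Egfr. It stood at 17.4, 13.0, 12.1 and 9.40 CPM in WT and at 15.6, 11.6, 9.36, 11.7 and 13.2 CPM in KO. The groups covered almost the same range, with a log2 fold change of -0.08 ± 0.21 (SE; 95% interval -0.54 to 0.38; edgeR adjusted p = 0.941). Tgfa shares 118 exon bases with an opposite-strand transcript, Gm43917, and reads there cannot be told apart where strand was not used in counting.

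Hbegf (ENSMUSG00000024486.6, chromosome 18, 36504927 to 36515805) encodes heparin-binding EGF-like growth factor, a ligand of Egfr and Erbb4. It stood at 11.9, 6.48, 11.3 and 7.83 CPM in WT and at 7.68, 5.38, 16.6, 8.67 and 8.38 CPM in KO. KO 3 was highest, from 101 counts, and KO 2 lowest. The log2 fold change was -0.0047 ± 0.32 (SE; 95% interval -0.71 to 0.70; edgeR adjusted p = 0.997), and it ran from -0.32 without KO 3 to 0.14 without KO 2.

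Hgf (ENSMUSG00000028864.7, chromosome 5, 16553495 to 16620152), the ligand of Met, was near the limit of detection. Its counts were 13, 6, 8 and 5 in WT and 7, 11, 11, 9 and 28 in KO, or 3.02, 1.25, 1.33 and 1.12 CPM and 1.38, 1.79, 1.81, 1.62 and 4.79 CPM. KO 5 and WT 1 were high and the other 7 libraries lay between 1.12 and 1.81 CPM. It was under the count filter. An exact permutation test of the mean log2 CPM gave p = 0.460 (two-sided), with a difference of 0.33. The difference was 0.059 without KO 5 and 0.60 without WT 1 (exact permutation p = 0.0893). Beside the level in KO 5, the 7 T and NK cell markers, of which 4 were detected in every library and none was at 0 throughout, summed to 22.2 CPM there. In the other KO libraries they summed to 3.28 to 7.33 CPM, and in WT to 7.31 to 13.4 CPM. The 11 macrophage markers summed to 656 CPM in KO 5, the highest of the KO libraries. The 11 fibroblast markers summed to 350 CPM in KO 5, the lowest of all 9 libraries, where KO ranged up to 711 CPM and WT from 821 to 1159 CPM. Their part in the Hgf level was not tested. Hgf also shares 484 exon bases with the same-strand entry Gm43489.

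Ereg (ENSMUSG00000029377.5, chromosome 5, 91074622 to 91093646), which encodes epiregulin, a ligand of Egfr and Erbb4, was not detectable at this depth in 8 of the libraries. It had 1 count in all, in KO 4.

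**Figure D4:**
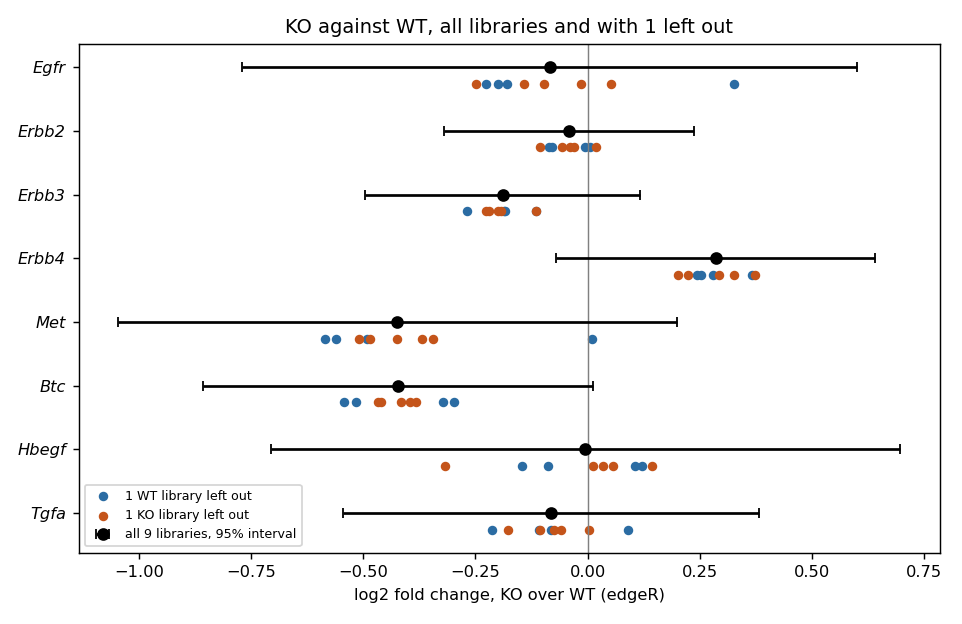
Log2 fold change of KO over WT by edgeR for the 8 members tested. Black points and bars give the estimate and 95% interval from all 9 libraries, and colored points the estimates with 1 WT (blue) or 1 KO (orange) library left out. Every interval holds 0, and for Egfr and Met the estimate without WT 1 lies apart, at 0.33 and 0.0098.

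The ErbB ligands outside the chosen set were examined as a listed group of 7. Their evenness over the 9 libraries differed from gene to gene, with a coefficient of variation of 21.6% for Nrg2 and 24.1% for Egf, while Areg ranged 108-fold. By edgeR 0 of the 6 tested passed after adjustment. Unadjusted p under 0.05 was seen for 3 of them, higher in KO for 2 and lower for 1, where 3.36% of all genes were higher and 4.59% lower at that threshold. DESeq2 called 0 of the 6. The median log2 fold change was 0.06.

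The neuregulins bind Erbb4, and of them Nrg1 and Nrg2 also bind Erbb3. Nrg1 stood at 34.7, 28.6, 16.1 and 26.2 CPM in WT and at 43.3, 115.7, 38.7, 32.9 and 25.5 CPM in KO. KO 2 was 2.67 times the next library. The log2 estimate of KO over WT was 0.96 ± 0.42 (SE; edgeR adjusted p = 0.616), and 0.42 without KO 2. Nrg4 stood at 0, 4.81, 2.33 and 0.671 CPM in WT and at 7.29, 4.89, 12.3, 5.24 and 3.59 CPM in KO. All KO libraries but KO 5 exceeded every WT library, and the log2 fold change was 1.73 ± 0.66 (SE; edgeR adjusted p = 0.616), on low counts. Nrg2 was the steadiest of these ligands, with a mean of 42.4 ± 13.4 CPM over the WT (SD, n = 4) and 48.0 ± 6.49 CPM over the KO libraries (SD, n = 5), and exceeded Btc per kb in 9 of 9 libraries. Nrg3 had 0 counts in every library.

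Amphiregulin and epigen, ligands of Egfr, were high in 1 WT library. Areg stood at 6.05, 179.7, 1.66 and 8.28 CPM in WT and at 20.5, 89.8, 39.9, 37.5 and 6.16 CPM in KO. WT 2 was highest and WT 3 lowest. The estimate of KO over WT for Areg was -0.33 ± 1.07 in log2 units (SE; edgeR adjusted p = 0.953). It turned to 2.91 without WT 2 (edgeR adjusted p = 0.418) and to 1.72 by limma-voom. Epgn stood at 2.79, 15.9, 1.33 and 0.671 CPM in WT and at 1.03 to 1.97 CPM in KO, and the log2 estimate of -1.77 ± 0.76 (SE; edgeR adjusted p = 0.616) was -0.07 without WT 2. Egf itself averaged 15.0 ± 4.58 CPM over the WT (SD, n = 4) and 14.5 ± 3.05 CPM over the KO libraries (SD, n = 5). Per kb of exon the most abundant of the 11 ErbB ligands was Areg in WT 2 and KO 1 to KO 4, and Nrg2 in WT 1, WT 3, WT 4 and KO 5. In CPM, without scaling to length, Areg was not highest in KO 1 to KO 4. Nrg2 exceeded it in KO 1, KO 3 and KO 4, at 50.2, 40.4 and 57.2 CPM. Nrg1 exceeded it in KO 2, at 115.7 CPM. Btc, Hbegf and Tgfa made up at most 12.1%, 10.5% and 8.57% of the summed ligand level per kb in any library.

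**Figure D5:**
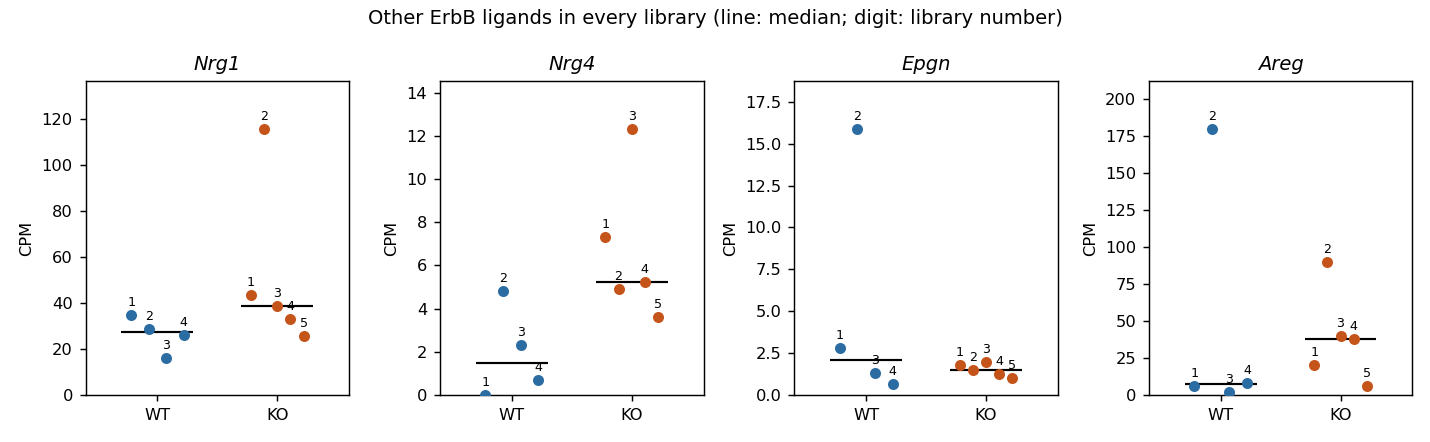
Level in CPM (linear axes from 0) of 4 ErbB ligands outside the chosen set in the 4 WT and 5 KO libraries, with the library number at each point and a line at the group's median. KO 2 is high for Nrg1 at 115.7 CPM, and WT 2 is high for Epgn and Areg at 15.9 and 179.7 CPM.

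The rest of the pathway was likewise without called genes. Over 7 lists, ligands included, 93 of 101 genes were tested and edgeR called 0. DESeq2 and limma-voom also called 0. Unadjusted p under 0.05 was seen for 3 genes higher and 9 lower in KO, where the shares over all genes were 3.36% and 4.59%. The median log2 fold change was -0.056, with 39 positive and 54 negative.

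Genes that process the ligands and attenuate the receptors gave the following counts. Of 7 genes of ligand shedding, 1 had an unadjusted p under 0.05, the metalloprotease Adam9, which averaged 147 ± 56.7 CPM over the WT (SD, n = 4) and 106 ± 10.5 CPM over the KO libraries (SD, n = 5). WT 1 was high for it at 232 CPM, and its log2 estimate of -0.48 was -0.17 without WT 1 (edgeR unadjusted p = 0.170). The edgeR unadjusted p was also above 0.05 without KO 1, KO 2, KO 4 or KO 5. Over all genes tested, 4.59% were lower at that threshold. The main ErbB ligand sheddases Adam10 and Adam17 differed by -0.37 ± 0.27 and -0.23 ± 0.20 on the log2 scale (SE), and the metalloprotease inhibitor Timp3 by -0.41 ± 0.31. Of 18 genes that attenuate ErbB and Met signalling, 0 had an unadjusted p under 0.05 and 9 were positive and 9 negative. The 4 with the smallest p were Socs4 (log2 fold change -0.28 ± 0.13 SE), the receptor phosphatase Ptprj (-0.37 ± 0.20), the endosomal sorting adaptor Stam2 (-0.20 ± 0.14) and the ErbB inhibitor Lrig1 (-0.17 ± 0.15).

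Among 30 adaptors and signalling enzymes, 15 were positive and 15 negative. An unadjusted p under 0.05 was seen for 1 of them, where 7.95% of all genes tested had one. That gene was Gab2, which encodes a docking protein. It averaged 46.3 ± 7.05 CPM over the WT (SD, n = 4) and 33.7 ± 5.80 CPM over the KO libraries (SD, n = 5). Its log2 estimate was -0.46 ± 0.16 (SE; edgeR adjusted p = 0.616). The kinase genes Araf and Map2k1 and the phospholipase gene Plcg2 followed, with log2 fold changes of 0.23 ± 0.11, -0.18 ± 0.14 and -0.28 ± 0.21 (SE). Of 16 ERK feedback genes and targets tested, 1 had an unadjusted p under 0.05 (7.95% over all genes), Ier3. It averaged 92.5 ± 15.7 CPM over the WT and 66.9 ± 15.9 CPM over the KO libraries. Its edgeR unadjusted p was above 0.05 without WT 2, WT 4, KO 1, KO 2 or KO 5, each left out in turn. The ERK phosphatase Dusp4 differed by -0.48 ± 0.26 on the log2 scale (SE), Fos -0.68 ± 0.37 and the ETS factor Etv4 0.49 ± 0.24.

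The gene with the smallest p in the pathway was Spint1. It encodes the inhibitor HAI-1 of the proteases that cleave pro-Hgf, and stood at 142, 111, 111 and 106 CPM in WT. In KO it stood at 86.5, 80.7, 76.2, 92.2 and 93.5 CPM, so that every KO library lay below every WT library, as for 1.26% of all genes tested. Its log2 fold change was -0.46 ± 0.12 (SE; edgeR unadjusted p = 0.0033, adjusted p = 0.475; DESeq2 adjusted p = 0.0763), and it ran from -0.51 to -0.35 when 1 library was left out. Spint2, which encodes the related inhibitor HAI-2, had a log2 fold change of -0.37 ± 0.17 and the protease gene St14 (matriptase) -0.34 ± 0.14. Hpn, which encodes the protease hepsin, had 0.22 ± 0.13. WT 1 was the highest library for Spint1, Spint2 and St14. Of the 7 genes tested in this list, 3 had an unadjusted p under 0.05, all lower (4.59% over all genes), and 6 further genes of the list were under the count filter. Without WT 1 the estimates were -0.16 for Spint2 and -0.21 for St14, with edgeR adjusted p of 0.787 and 0.763 and unadjusted p above 0.05. Among 9 partners of Met, Axl, Plxnb1 and Cd82 had unadjusted p under 0.05, where 3.36% of all genes were higher and 4.59% lower. Their log2 fold changes were -0.52 ± 0.20, 0.32 ± 0.14 and -0.31 ± 0.14 (SE), and Plxnb2 had -0.22 ± 0.15. Cd82 stood at -0.20 without WT 1 and Plxnb1 at 0.21 without KO 4, both then with an unadjusted p above 0.05. Leaving out other single libraries also put the edgeR unadjusted p above 0.05 for Plxnb1, Cd82, Spint2 and St14. For Axl it was 0.0558 without WT 2, 0.0950 without WT 4, 0.0629 without KO 1 and 0.0601 without KO 3. Beside these genes, the 16 luminal markers had a median log2 fold change of -0.46, with 14 of 16 negative. Of the 16, 5 were lower at an unadjusted p under 0.05 by edgeR (4.59% over all genes). The part of the luminal markers was not tested. DESeq2 called 1 of the 16 (0.464% over all genes), Muc1, chosen here after its values were seen. Whether reads of the human MUC1 transgene, carried by both groups, were counted for this mouse gene was not examined. Its log2 estimate by edgeR was -0.76 ± 0.16 (SE; edgeR adjusted p = 0.242; DESeq2 adjusted p = 0.00665), with every KO library below every WT library.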

How the data were processed

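RNA of dissociated mammary tumors had been sequenced as stranded, ribosome-depleted libraries, per the labels' protocols. Trimmomatic 0.36, FastQC 0.11.5, STAR 2.5.4a and build GRCm38 are named in the submitters' processing notes. The sources used here give no annotation release or strand setting. The deposited table holds unnormalized counts per gene, made by the authors. Its rows that name no gene (unmapped 10.99% to 27.1%, multimapped 5.50% to 9.53%, no feature 34.0% to 50.4%, ambiguous 0.971% to 1.23% of fragments) were left out of library sizes and tests. Of 55401 identifiers 55141 matched a symbol in GENCODE M21, which also gave positions, exon lengths and GC content.

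KO was compared with WT with edgeR 4.0.16 in R 4.3.3 (TMM, filterByExpr, glmQLFit, glmQLFTest, genotype as the only term), with p-values adjusted over the 14665 genes tested; SE is the log2 fold change over the square root of F. DESeq2 1.42.0 and limma-voom with sample weights (limma 3.58.1) were alternatives, as were other scaling factors and count filters, an age covariate, a block for the library number and each library left out. Log2 CPM used a prior count of 2. Permutation p-values were exact and unadjusted. The edgeR step was tested on simulated data.

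The members, lists and tests were chosen with earlier results of these data known. The rule for named genes takes all members, the other ErbB ligands, up to 4 genes with the smallest p from each pathway list, and the 3 genes most correlated with Egfr, Erbb2, Erbb3 and Met; Hgf was not tested and has none, and 1 gene named by the rule is not reported here. The GC and length correction was chosen after seeing the data. Lists named are the pathway lists and markers of luminal, basal, fibroblast, endothelial, macrophage, T and NK, adipocyte and milk protein genes. Promoter windows for 7 members were in the RefSeq table.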

Additional observations from a re-analysis of the deposited data

Results flagged for a closer look

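Single libraries that stood far from the rest of their group were seen for 17 of 82 combinations of gene and group examined, where chance gives about 1 in 20. WT 1 accounted for 9 of them. It was high for Egfr (474 CPM, next 222 CPM), Hgf (3.02 CPM, next 1.33 CPM), Adam9 (232 CPM), Adam17 (167 CPM), Ptprj (497 CPM), Spint1 (142 CPM), Spint2 (657 CPM), Hpn (38.6 CPM) and Plxnb2 (513 CPM). WT 2 was high for Areg (180 CPM, next 8.28 CPM), Epgn (15.9 CPM, next 2.79 CPM) and Fos (262 CPM, next 121 CPM). WT 4 was low for Socs4 (36.0 CPM, next 45.6 CPM). Among KO libraries, KO 5 was high for Hgf (4.79 CPM, next 1.81 CPM), KO 2 for Nrg1 (116 CPM, next 43.3 CPM), and KO 3 for Timp3 (83.1 CPM, next 44.9 CPM) and Adam17 (119 CPM, next 89.6 CPM).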

How the results depend on the processing

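No member and no pathway gene was called at an adjusted p under 0.05 in any setting tried, nor at 0.1 by edgeR with all libraries. Some settings gave 1 member an unadjusted p under 0.05, as 7.95% of all genes had in the main edgeR fit. It was Erbb4 by limma-voom, and by edgeR with the replicate block and without KO 5. By edgeR it was Btc without WT 3, without WT 4, and with the GC and length correction with or without the block. With age as a covariate it was Met. The number of all genes called was 13, and 68 by DESeq2, 29 without a count filter, 6 at a mean count of at least 50, 6 with the replicate block and GC and length correction together, and 6 to 13 with 1 library left out. Directions of small changes turned. Egfr had a log2 fold change of 0.14 by limma-voom, 0.13 with the replicate block, 0.053 with the block and GC correction, and 0.39 without WT 1 and WT 4. Erbb2 had 0.046 by limma-voom, 0.015 with library totals and 0.015 with age. Tgfa had 0.097 by limma-voom. Hbegf had 0.059 with library totals, 0.00019 at a mean count of at least 50, 0.060 without WT 1 and WT 4, and 0.010 with the GC correction. With 1 library left out the log2 fold change ran from -0.25 to 0.33 for Egfr, -0.11 to 0.019 for Erbb2, -0.32 to 0.14 for Hbegf, -0.21 to 0.089 for Tgfa and -0.59 to 0.0098 for Met, and the difference of mean log2 CPM from -0.18 to 0.27 for Egfr, -0.11 to 0.019 for Erbb2, -0.28 to 0.11 for Hbegf and -0.20 to 0.086 for Tgfa. Exact permutation gave 0 members under 0.05, and 0 to 1 with 1 library left out, the 1 being Erbb3 without WT 4 (difference -0.27, exact permutation p = 0.0357). Hspa1a kept its direction, at -3.61 to -2.89 with 1 library left out (adjusted p 0.029 to 0.125, called only without WT 3 and without KO 3), and lost its call with the replicate block (-3.23), with age (-3.16), without WT 1 and WT 4 (-3.00), with GC correction (-3.135) and with both block and correction (-3.18). Library numbers 1 to 4 are shared by the groups. They were not taken to pair the samples, since the labels do not say so and 1 of the 4 same-numbered pairs did not correlate: deviations correlated at -0.024, 0.38, 0.11 and 0.38, and 3 of the 4 WT libraries correlated best with their own number, a hint from the data. The block moved the number of all genes called to 9 and the log2 estimate for Areg from -0.33 to 1.55. Of the 3 genes most like Erbb3, 0 stayed among the 3 by Spearman correlation, and for Met 1 stayed. Epgn was under the count filter whenever a KO library was left out. The causes were not tested. Depth limits Hgf and Ereg, with 98 counts and 1 count in all.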

Other observations

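The level of Areg ran alongside that of Esr1, the estrogen receptor gene, whose product is known to induce Areg in mammary epithelium. Esr1 stood at 15.4, 77.1, 21.3 and 23.3 CPM in WT 1 to WT 4 and at 51.0, 47.4, 33.8, 27.4 and 17.6 CPM in KO 1 to KO 5. WT 2, labelled 132 days and the oldest, was highest for both genes. Over the 9 libraries the log2 levels of Areg and Esr1 had r = 0.84 and rho = 0.85, and r = 0.74 without WT 2, given as a description over points that share library and depth. The pioneer factor gene Foxa1 was also highest in WT 2, at 134 CPM, with r = 0.53 against Areg and r = 0.22 without WT 2. So were Prlr and Krt19, at 684 and 1651 CPM. Against Areg both had r = 0.60, and without WT 2 r = 0.45 for Prlr and 0.26 for Krt19. Whether the product of Esr1 acts on Areg in these tumors was not tested. Median log2 fold changes of KO over WT were -0.75 for the 11 fibroblast, -0.82 for the 9 endothelial, -0.61 for the 11 macrophage and -0.17 for the 9 basal markers. They were -0.18 over the 4 adipocyte markers tested, -0.15 over the 2 T and NK markers tested and -1.88 over the 9 milk protein genes tested. Single WT libraries weighed on some of these. Milk protein genes summed to 17945 CPM in WT 1 and 14423 CPM in WT 4. In WT 2 and WT 3 they summed to 4218 and 5900 CPM, and in KO to 3203 to 8527 CPM. Endothelial markers summed to 171 CPM in WT 1, 75.8 to 83.7 CPM in the other WT libraries and 34.7 to 96.8 CPM in KO. By edgeR 0 genes of these lists were called after adjustment. Unadjusted p under 0.05 was seen for 7 fibroblast, 3 endothelial, 2 macrophage, 1 adipocyte and 8 milk protein genes, all lower, where 4.59% of all genes were, and DESeq2 called 2, 0, 1, 1 and 4 genes of those lists, where it called 0.464% of all genes.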
